A study of Mus musculus with 6 samples.

Results

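The immunity-related GTPases (IRG proteins) were examined as a family of 9 genes, *Irgm1*, *Irgm2*, *Igtp*, *Iigp1*, *Ifi47*, *Tgtp1*, *Tgtp2*, *Gm4951* and *F830016B08Rik*, picked by symbol from the 37310 genes of the count table. The data were RNA-seq counts from whole brain of 12-week-old male C57BL/6 mice, with 3 biological replicates per genotype. The *Adar1* E861A mice (*Adar1* E861A/E861A *Ifih1*-/-) were homozygous for a germline point mutation that leaves ADAR1 unable to edit RNA. The wild-type mice (*Adar1*+/+ *Ifih1*-/-) had normal *Adar1*. Germline loss of *Ifih1*, the gene for MDA5, a cytoplasmic sensor of double-stranded RNA, was common to both groups. No animals with intact *Ifih1* were part of this comparison, which asked whether loss of ADAR1 editing changes these transcripts in adult brain when MDA5 is absent. Each transcript is given as a count and as CPM, the count scaled to a library total of 1000000.

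IRG proteins are large GTPases that interferon induces in mouse cells, where they defend against parasites and bacteria living in vacuoles. Effector members gather on the membrane of the vacuole and disrupt it. Regulator members sit on the cell's own membranes, hold the effectors in an inactive form and so protect host organelles. The classes differ in the nucleotide-binding loop, in which effectors carry the GKS sequence of ordinary GTPases and regulators carry GMS. IRG transcripts are low in resting tissue and rise with type I or type II interferon.

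The loop was read from the coding sequences of the longest annotated transcripts, since it sorts the 9 members into their classes. Below, 24 coding bases are shown 5′ to 3′ for members on chromosome 11, with the codon that separates the classes in capitals, ATG for methionine and AAG for lysine.
Irgm1: ggggactctggcaatggcATGtca
Irgm2: ggggactctggcaatggcATGtca
Igtp: ggggactctggcaatggcATGtca
Ifi47: gggcagtctgggactggcAAGtcc
Tgtp1: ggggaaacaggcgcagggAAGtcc
Tgtp2: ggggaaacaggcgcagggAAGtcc
The 3 regulators *Irgm1*, *Irgm2* and *Igtp* shared all 24 bases. The other six, including *Iigp1*, *Gm4951* and *F830016B08Rik*, whose bases are not shown, had a GKS loop. These are called effectors here, although the functions of *Gm4951* and *F830016B08Rik* are less well known. *Tgtp1* and *Tgtp2* shared the same loop and differed at 4 of 1248 coding bases (99.7% identical).

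The 6 members on chromosome 11 had an entry among RefSeq promoters (GRCm38.p6), which run from 250 bases before to 50 bases after a gene's start, and each was placed on NCBIM37 by its single exact match. Sequences around known interferon elements are shown as background, and their part in the differences between genotypes was not tested. The ISRE, bound by the ISGF3 complex and by IRF factors, was searched as GAAA, any 2 bases and GAAA, and the GAS, an element of the response to type II interferon, as TTC, any 3 bases and GAA, both on either strand. Below, 30 bases are shown on the strand of the gene with both patterns in capitals.
Irgm1: tagcctgtttcaaGAAATAGAAACCGAAAc
Irgm2: atTTCCAGGAActGAAACTGAAAgctgttc
Igtp: atTTCTAGGAActGAAACTGAAAgctgttc
Tgtp1: atTTCCAGGAAtcGAAACTGAAAcctacct
Tgtp2: atTTCCAGGAAtcGAAACCGAAAcctactc
These lie at chr11:48684936-48684965 (minus strand) for *Irgm1*, chr11:58028402-58028431 (plus) for *Irgm2*, chr11:58013011-58013040 (plus) for *Igtp*, chr11:48805809-48805838 (minus) for *Tgtp1* and chr11:48877768-48877797 (minus) for *Tgtp2*. In GENCODE vM1 the sequences of *Irgm2*, *Igtp* and *Tgtp2* are upstream of the gene, that of *Tgtp1* is in an intron and that of *Irgm1* is in an exon, as the annotated starts of these genes differ between RefSeq and GENCODE. The *Irgm1* sequence holds 2 overlapping ISRE matches and no GAS match. In the other 4 the GAS begins 11 bases before the ISRE. The *Ifi47* window held 0 matches to either pattern. Of 32817 RefSeq promoters, 3.43% held the ISRE pattern, 8.29% the GAS pattern and 0.451% both. The arrangement with the GAS 11 bases before the ISRE on the same strand, a spacing taken from the members themselves, was found in 5 promoters. These were the 4 members, whose recovery was fixed by that choice, and *Gm12185*, a further gene of the IRG family. Near-identical genes such as *Tgtp1* and *Tgtp2* are not independent cases, so this count does not measure how particular the arrangement is. The 250 bases before the RefSeq start of *Irgm2* and of *Tgtp2*, a regulator and an effector, show the element in its setting.
Irgm2, chr11:58028229-58028478, plus strand: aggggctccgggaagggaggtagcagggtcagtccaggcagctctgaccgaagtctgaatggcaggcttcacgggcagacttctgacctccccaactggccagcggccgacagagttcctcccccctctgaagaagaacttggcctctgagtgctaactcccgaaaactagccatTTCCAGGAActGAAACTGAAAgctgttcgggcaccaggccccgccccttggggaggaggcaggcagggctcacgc
Tgtp2, chr11:48877715-48877964, minus strand: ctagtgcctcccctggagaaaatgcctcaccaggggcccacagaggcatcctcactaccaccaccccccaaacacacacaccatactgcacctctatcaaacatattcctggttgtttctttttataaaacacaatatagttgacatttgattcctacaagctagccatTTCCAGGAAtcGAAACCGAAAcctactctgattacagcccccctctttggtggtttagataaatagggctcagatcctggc
A match is a description of letters in these windows, and binding was not measured.

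The members lie in groups on chromosomes 11 and 18 (mouse NCBIM37, mm9). The chromosome 18 group spans 0.181 Mb and holds *Gm4951* (ENSMUSG00000073555, 60371734 to 60407474), *F830016B08Rik* (ENSMUSG00000090942, 60453034 to 60462670) and *Iigp1* (ENSMUSG00000054072, 60535683 to 60552281). On chromosome 11, *Irgm1* (ENSMUSG00000046879, 48675470 to 48685185), *Tgtp1* (ENSMUSG00000078922, 48798829 to 48807674), *Tgtp2* (ENSMUSG00000078921, 48870696 to 48877708) and *Ifi47* (ENSMUSG00000078920, 48890089 to 48910476) are neighbours, and *Igtp* (ENSMUSG00000078853, 58013058 to 58021093) and *Irgm2* (ENSMUSG00000069874, 58028530 to 58036282) lie together further along the chromosome.

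Libraries held 26853488 to 38076753 counts, and each wild-type library was deeper than the *Adar1* E861A library of the same number. A count of 3, taken as the floor, corresponds to 0.0788 to 0.112 CPM. *Adar1* E861A replicate 1 stood apart by its pituitary hormone transcripts. Their summed level ranged from 1.34 to 439 CPM in *Adar1* E861A and from 1.3 to 2.52 CPM in wild type, and *Gh* had 8416 counts in that library. The *Adar1* alleles differ by a point mutation and *Ifih1* still gave 38 to 56 counts per library, so gene counts cannot check the genotypes. *Adar1* E861A replicate 3 held 94 counts of *S100a8* and 111 of *S100a9*, neutrophil genes that had at most 29 and 39 in any other library.

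All 9 members had higher CPM in each *Adar1* E861A library than in any wild-type library, whereas 6.98% of 13649 and 7.25% of 19366 genes, under the filters given below, did so in this direction. Over the family, summed CPM was 13.9 ± 0.82 in wild type and 29.97 ± 3.94 in *Adar1* E861A (SD, n = 3). Of the 9 members, 8 were called higher, the exception being *Irgm1*, by an adjusted p under 0.05 in edgeR's quasi-likelihood test. The share of all genes called was 0.506% in either direction, and 0.41% higher, under the study's filter (at least 2 CPM in 3 of 3 libraries of either genotype; 13649 genes) and 0.449% under a wider filter (filterByExpr; 19366 genes). The study's filter kept 4 members, *Irgm1* and *Irgm2* through both genotypes and *Iigp1* and *Igtp* through *Adar1* E861A alone. The other five are given from the wider fit, whose CPM minimum of 0.278 they reached in 3 of 3 *Adar1* E861A libraries. In wild type, *Ifi47*, *Tgtp1*, *Tgtp2* and *Gm4951* reached it in 2 of 3 libraries and *F830016B08Rik* in 0, so all of these passed through *Adar1* E861A. A filter on the mean count over all 6 libraries (at least 10), blind to genotype, also kept all 9 members and called 9 of them, against 0.44% of genes called higher. In the wider fit, the median log2 fold change of the 9 members was 1.75, and that of all 19366 genes was 0.000103. In whole tissue, more cells of a type and more RNA per cell cannot be told apart.

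**Figure D1:**
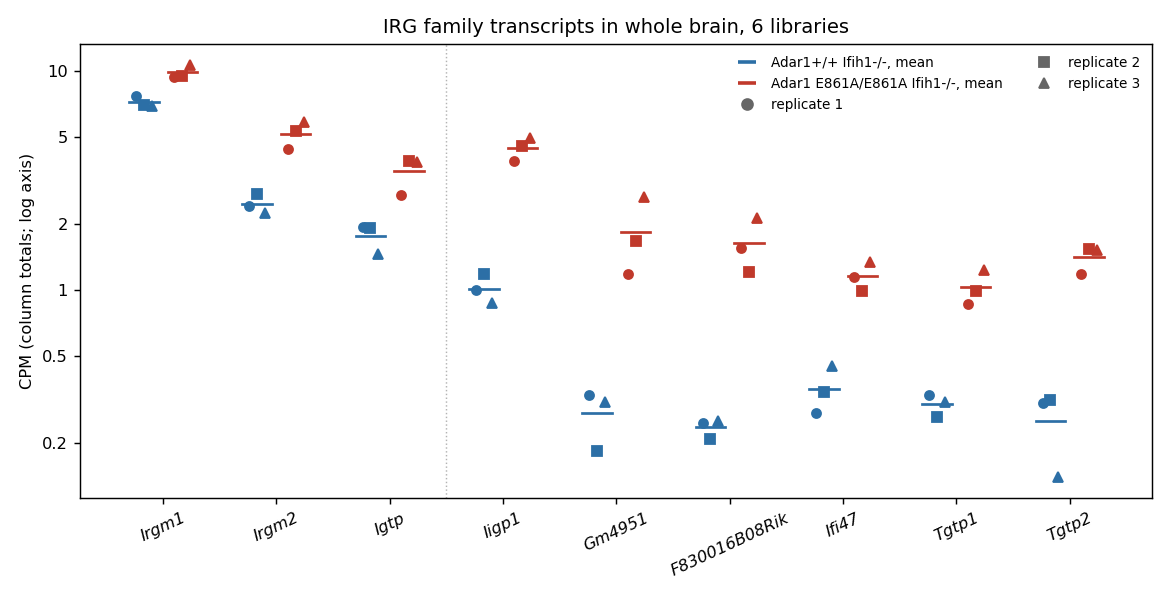
CPM (log axis) of the 9 IRG transcripts in each of the 6 libraries, with symbols for the replicate number, colours for genotype and dashes for the mean of 3 libraries; regulators are left of the dotted line and effectors right of it. The genotypes do not overlap for any member, and the gap is narrowest for *Irgm1*, with means of 9.82 and 7.19 CPM.

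The regulators had the smaller fold changes. *Irgm1*, whose product keeps the effectors off host membranes and takes part in autophagy and mitochondrial upkeep, had 269, 344 and 286 counts in the *Adar1* E861A libraries, in order of replicate number, and 278, 265 and 247 in the wild-type ones. Scaled to depth these were 9.32, 9.48 and 10.7 CPM against 7.69, 6.96 and 6.92 CPM. The lowest *Adar1* E861A library was thus 1.21 times the highest wild-type library, although the raw counts, which are not scaled to depth, overlapped. The log2 fold change was 0.45 ± 0.09 (SE), a 1.37-fold difference. The adjusted p was 0.0613 under the study's filter, which does not pass the threshold, and 0.0389 in the wider fit, which does. The labels do not state that replicate numbers pair libraries across genotypes. Blocking on the replicate number gave an adjusted p of 0.0416 (log2 fold change 0.45), with 0.755% of genes called higher in that fit. The blocked fit called 9 members, against 0.78% of genes called higher in its wider form. In the fit without the block, leaving out *Adar1* E861A replicate 3 gave an adjusted p of 0.421, and over the omission of each library it ran from 0.0607 to 0.421.

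*Irgm2*, a regulator found at the Golgi and other internal membranes, had 127, 192 and 156 counts in *Adar1* E861A and 87, 104 and 80 in wild type. As CPM these were 4.40, 5.29 and 5.81 against 2.41, 2.73 and 2.24, without overlap. It rose by 1.07 ± 0.15 on the log2 scale (2.10-fold, adjusted p 0.00157), and the call held when each library was left out. *Igtp*, also known as Irgm3, the regulator of the endoplasmic reticulum and lipid droplets, had 78, 141 and 103 counts against 70, 73 and 52. Its CPM were 2.70, 3.89 and 3.84 in *Adar1* E861A and 1.94, 1.92 and 1.46 in wild type. The lowest *Adar1* E861A value, in replicate 1, was 1.40 times the highest in wild type. *Igtp* rose 1.97-fold (log2 fold change 0.98 ± 0.18, adjusted p 0.0208). This call rested on single libraries, as the adjusted p was 0.0522 without *Adar1* E861A replicate 2, 0.266 without replicate 3 of that genotype and 0.162 without wild-type replicate 3.

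The effectors among the members had larger fold changes, from 3.20-fold to 6.68-fold. *Iigp1*, the best studied effector, which oligomerises on the vacuole of *Toxoplasma*, had 112, 165 and 132 counts in *Adar1* E861A and 36, 45 and 31 in wild type. These were 3.88, 4.55 and 4.92 CPM against 0.995, 1.18 and 0.868 CPM, so the lowest *Adar1* E861A library was 3.28 times the highest wild-type one. The log2 fold change was 2.12 ± 0.17 (adjusted p 1.27e-05). Its neighbours on chromosome 18 showed the largest folds of the family. *Gm4951*, whose coding sequence is 86.1% identical to that of *Iigp1*, had 34, 61 and 71 counts against 12, 7 and 11. Its CPM spread more among *Adar1* E861A libraries than that of the other members, at 1.18, 1.68 and 2.64, with 0.332, 0.184 and 0.308 in wild type. It rose 6.57-fold (log2 fold change 2.72 ± 0.34, adjusted p 0.000235). *F830016B08Rik*, at 65.7% identity to *Iigp1*, had 45, 44 and 57 counts against 9, 8 and 9. Replicate 3 was again the highest *Adar1* E861A library, at 2.12 CPM beside 1.56 and 1.21, and wild-type libraries lay between 0.21 and 0.252 CPM. It rose 6.68-fold (log2 fold change 2.74 ± 0.30, adjusted p 6.59e-05).

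*Ifi47*, an effector of chromosome 11 that is recruited to parasite vacuoles, had 33, 36 and 36 counts in *Adar1* E861A and 10, 13 and 16 in wild type. These were 1.14, 0.992 and 1.34 CPM against 0.276, 0.341 and 0.448 CPM. It had the smallest fold among the effector members, 3.20 (log2 fold change 1.68 ± 0.27, adjusted p 0.00428). The adjusted p became 0.0572 without *Adar1* E861A replicate 3. *Tgtp1* and *Tgtp2* encode near-identical effectors that are loaded early onto the vacuole. *Tgtp1* had 25, 36 and 33 counts against 12, 10 and 11, which is 0.866, 0.992 and 1.23 CPM against 0.332, 0.263 and 0.308 CPM. *Tgtp2* had 34, 56 and 41 counts against 11, 12 and 5, which is 1.18, 1.54 and 1.53 CPM against 0.304, 0.315 and 0.14 CPM. Both copies were higher in every *Adar1* E861A library, by 1.75 ± 0.28 for *Tgtp1* (adjusted p 0.00374) and 2.46 ± 0.30 for *Tgtp2* (adjusted p 0.000193) on the log2 scale. Without *Adar1* E861A replicate 3 the adjusted p of *Tgtp1* was 0.0502.

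The aligner counts reads that map to 1 place, so near-identical copies lose reads. Of all 75-base windows within annotated exons, 22.1% of those of *Tgtp1* and 15% of those of *Tgtp2* occurred once in the genome. The share was 88.9% for *Igtp* and 94.9% to 100% for the other members. By these windows, counts of both *Tgtp* genes come from a small part of each transcript, and how reads were divided between them is uncertain. Read pairs and reads across exon junctions were not considered, so the part that could be counted may be larger. Exons of *Tgtp1* also overlap *Gm12185* over 6.96% of their length, and those of *Ifi47* overlap *Olfr56* over 4.79%, on the same strand. Added together, the copies had 59, 92 and 74 counts in *Adar1* E861A and 23, 22 and 16 in wild type. Mean CPM of the sum was 0.554 ± 0.096 in wild type and 2.45 ± 0.365 in *Adar1* E861A (SD, n = 3). It rose by 2.13 ± 0.22 on the log2 scale (adjusted p 3.33e-05) and was called in each alternative tried.

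**Figure D2:**
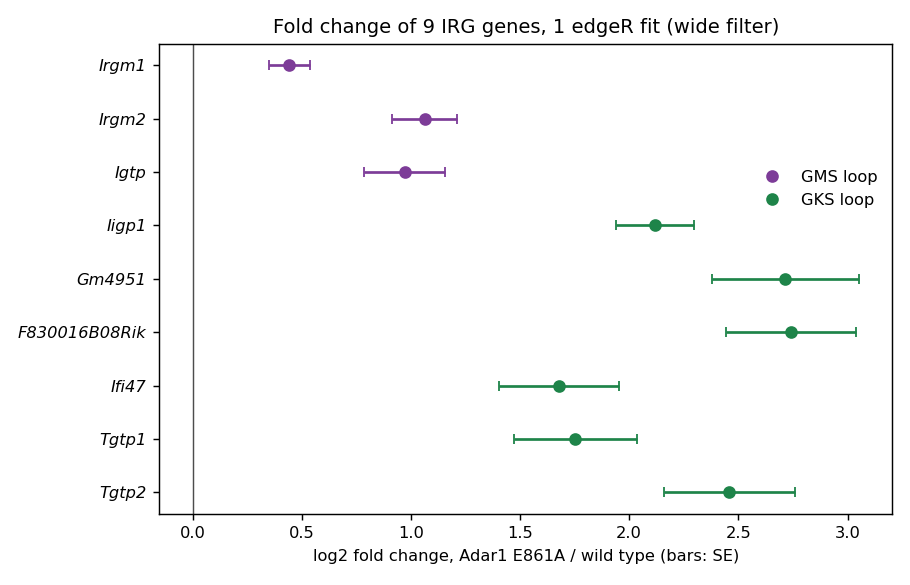
Log2 fold change of each member between *Adar1* E861A and wild-type brain with its standard error (bars), all from the wider edgeR fit, coloured by the class of the nucleotide-binding loop. The 3 regulators (GMS) lie between 0.44 and 1.06 and the 6 effectors (GKS) between 1.68 and 2.74, with no overlap of the estimates.

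Members thus differed in the size of the change. In the wider fit, log2 fold changes ran from 0.44 to 1.06 among the 3 regulators and from 1.68 to 2.74 among the 6 effectors. The effector *Gm12250*, which is not among the members, had 0.96 ± 0.42, inside the range of the regulators. Other IRG genes outside the members, whose loops were not read, also lay below the 6 effectors. *Gm5431* had 1.51 ± 0.31, *9930111J21Rik1* 0.43 ± 0.25 and *9930111J21Rik2* 0.20 ± 0.16. Of the exon windows of the last-named genes, 25.3% and 30% occurred once in the genome. The gap between classes thus holds for the listed members only. The difference between classes was not tested, and it is one of folds. Mean CPM went from 2.46 to 5.17 for *Irgm2*, from 1.02 to 4.45 for *Iigp1* and from 0.237 to 1.63 for *F830016B08Rik*. In wild type the regulators also stood higher, at 0.708 to 1.24 CPM per kb of exon against 0.0719 to 0.325 for the 6 effectors. Class and wild-type level therefore cannot be told apart among these members. Within libraries, the log2 ratio of *Iigp1* to *Irgm1* CPM was -1.24, -1.04 and -1.10 in *Adar1* E861A and -2.83, -2.46 and -2.86 in wild type, a shift of 1.59. The ratio of *Iigp1* to *Irgm2* shifted by 0.99, from -1.20 ± 0.07 to -0.21 ± 0.03 (SD, n = 3), and that of *Iigp1* to *Igtp* by 1.10. *Irgm1* fell relative to *Irgm2* by 0.59 and relative to *Igtp* by 0.48. Genotypes did not overlap for these 5 of the 6 pairs compared, each with p = 0.1 by an exact two-sided permutation test, the smallest p that 3 against 3 libraries allow (0.12 adjusted over the 6 pairs). The ratio of *Irgm2* to *Igtp* overlapped between genotypes (shift 0.11, exact permutation p = 0.5). For each of the 9 members taken singly, the same exact test on log2 CPM also gave 0.1.

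The make-up of the family changed with these unequal rises. *Irgm1* supplied 49.4% to 53.5% of IRG counts in wild-type libraries and 31.3% to 35.5% in *Adar1* E861A libraries. The share of *Iigp1* went from between 6.71% and 8.38% to between 14.4% and 15.4%. These shares are of counts and depend on transcript length.

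**Figure D3:**
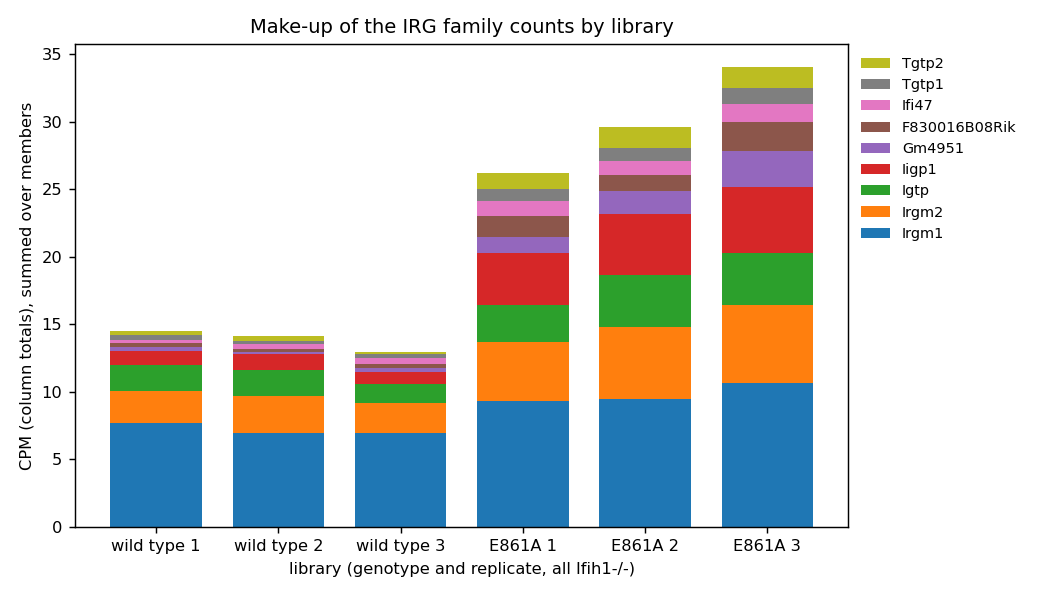
Summed CPM of the 9 IRG transcripts in each library, split by member. The sum lies between 12.9 and 14.5 CPM in the 3 wild-type libraries and between 26.2 and 34.1 CPM in the 3 *Adar1* E861A libraries, and *Irgm1* (bottom) takes a smaller share in the latter.

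Levels were compared between genes as CPM per kb of annotated exon. In wild type the regulators stood highest, with *Irgm1* at 1.24 ± 0.07, *Igtp* at 0.875 ± 0.13 and *Irgm2* at 0.708 ± 0.07 CPM per kb (SD, n = 3). The ranges of *Igtp* and *Irgm2* overlapped, and that of *Irgm1* lay above both. *Iigp1* followed at 0.325 ± 0.05 CPM per kb, apart from its neighbours in the order on either side. *Ifi47* (0.153), *Gm4951* (0.104), *Tgtp1* (0.0939), *Tgtp2* (0.0862) and *F830016B08Rik* (0.0719 CPM per kb) came last, and each overlapped the next in this order. Among those further apart, *Ifi47* lay above both *Tgtp* genes and *F830016B08Rik*, and *Tgtp1* lay above *F830016B08Rik*. The levels of both *Tgtp* genes are lowered by the reads that near-identical copies lose. In *Adar1* E861A brain *Igtp* (1.72), *Irgm1* (1.69), *Irgm2* (1.49) and *Iigp1* (1.43 CPM per kb) had overlapping ranges between neighbours in this order, while every library's *Irgm1* level lay above those of *Iigp1*. The other five lay below all of these, from 0.321 CPM per kb for *Tgtp1* to 0.694 for *Gm4951*.

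**Figure D4:**
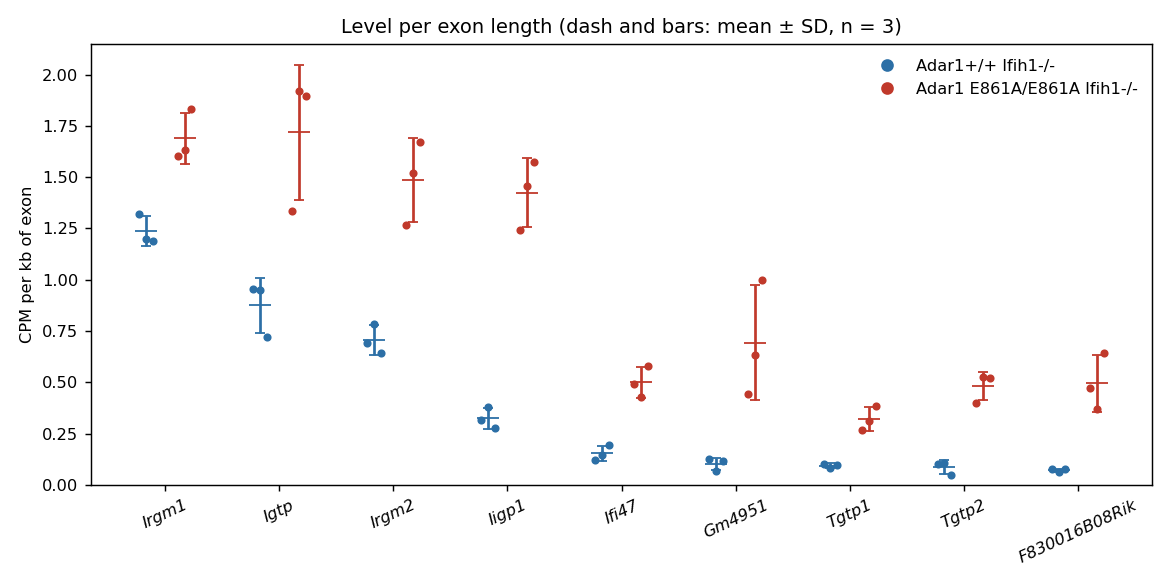
CPM per kb of annotated exon for the 9 members, ordered by wild-type level, with points for libraries and dashes with bars for mean ± SD of 3 libraries. *Iigp1* sits well below *Irgm1* in wild type (0.325 against 1.24) and near it in *Adar1* E861A brain (1.43 against 1.69).

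Members ranked the libraries alike in part. *Adar1* E861A replicate 3 gave the highest CPM of its genotype for 7 of 9 members, and replicate 1 gave the lowest for 7 of 9. Among wild-type libraries, replicates 1 to 3 were the highest for 4, 3 and 2 members and the lowest for 1, 3 and 5. Relative to the wild-type mean, the median member stood at 1.69, 1.72 and 2.03 on the log2 scale in *Adar1* E861A replicates 1 to 3. *Adar1* E861A replicate 3 was also the library with the most *S100a8* and *S100a9*, and the part of this in the result was not tested. The lowest library of the same genotype, replicate 2 for both genes, had 23 and 25 counts of them. Without *Adar1* E861A replicate 3, log2 fold changes of the 9 members ran from 0.38 for *Irgm1* to 2.51 for *F830016B08Rik* and 5 members were called. Without *Adar1* E861A replicate 1, the library with pituitary transcripts, they ran from 0.49 for *Irgm1* to 2.96 for *Gm4951* and 8 were called.

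By Pearson's r across the 6 libraries with the mean log2 CPM of the 4 members under the study's filter, the most similar of 13645 other genes were *Lrrk1* (0.997), *Myo1f* (0.997), *Ifit3* (0.994), *Ifit3b* (0.992) and *Gbp2* (0.991). This is a description, as the 6 points fall into 2 genotype clusters. *Ifit3* and *Ifit3b*, interferon-induced antiviral genes, rose by 1.64 ± 0.13 and 1.26 ± 0.14 on the log2 scale (adjusted p 1.27e-05 and 0.000322). *Lrrk1* and *Myo1f* matched in shape with differences of 0.11 ± 0.10 and 0.21 ± 0.14, neither of which was called (adjusted p 0.77 and 0.674).

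Further genes of the family, the interferon pathway and partner systems were read from the wider fit in lists of known genes. Of 8 other IRG genes, 6 were tested and 1 was called higher. This was *Gm5431*, with 24, 25 and 21 counts against 12, 7 and 10 (log2 fold change 1.51 ± 0.31, adjusted p 0.0283; not called by DESeq2), and 65.2% of its exon windows occurred once in the genome. *Gm4841*, on chromosome 18 between *Gm4951* and *F830016B08Rik*, was too low to be tested. It had 7, 5 and 12 counts in *Adar1* E861A and 1, 1 and 0 in wild type, and its summed counts per library total were 14.3 times as high (95% exact conditional interval 3.56 to 125, counting error only). *Gm12250*, which encodes the effector Irgb10, overlapped between genotypes, at 8, 21 and 14 counts in *Adar1* E861A and 12, 4 and 10 in wild type. Its log2 fold change was 0.96 ± 0.42 (adjusted p 0.57), below those of the 6 effectors among the members. *Gm12185*, the non-member with the same promoter arrangement, was too low to be tested. It had 2, 11 and 8 counts in *Adar1* E861A and 9, 6 and 5 in wild type, which overlapped. *Irgq*, a distant relative, was at 78.8 CPM in *Adar1* E861A and 79.6 CPM in wild type (log2 fold change -0.02 ± 0.07).

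The guanylate-binding proteins, a related GTPase family that interferon also induces and that acts on the same vacuoles, rose with the IRG genes. Of 8 listed *Gbp* genes, 6 were matched and 5 tested, and all 5 tested were called higher, with a median log2 fold change of 1.21. *Gbp3* rose by 1.42 ± 0.14 (adjusted p 2.72e-05), *Gbp2* by 1.27 ± 0.17 (adjusted p 0.000457), *Gbp4* by 1.21 ± 0.20 (adjusted p 0.00417) and *Gbp7* by 0.73 ± 0.12 (adjusted p 0.00594) on the log2 scale. The ATG8 conjugation system, which IRG proteins need to reach the vacuole, had 0 of 10 genes called in edgeR's quasi-likelihood test, 0 by DESeq2 or limma-voom and 0 at an unadjusted p under 0.05, with a median log2 fold change of 0.0101.

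Of the ligands, *Ifng*, *Ifnb1*, *Ifna4*, *Ifnl2* and *Ifnl3* gave 0 counts in each of the 6 libraries. The floor of 3 counts sets a limit of 0.112 CPM for the shallowest one, counting error only. *Ifna2* had 0 to 2 counts per library. Of 15 receptor, kinase and transcription factor genes, all tested, 3 were called higher and 0 lower. Among these, *Nlrc5*, the transactivator of MHC class I genes, rose by 1.64 ± 0.21 (adjusted p 0.00037) and *Irf7*, a factor for type I interferon genes, by 1.25 ± 0.23 (adjusted p 0.0129). *Irf1*, a transcription factor that IRG promoters are known to use, had 93, 127 and 109 counts against 119, 106 and 99 in the deeper wild-type libraries. Its mean CPM was 3.59 ± 0.43 in *Adar1* E861A and 2.95 ± 0.30 in wild type (SD, n = 3). The CPM overlapped between genotypes and *Irf1* did not pass the test (log2 fold change 0.28 ± 0.14, adjusted p 0.653). *Irf9*, the DNA-binding subunit of ISGF3, had a log2 fold change of 0.37 ± 0.10 with an adjusted p of 0.173, and of 0.0322 with the replicate block.

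Cell type markers were examined in the same fit. Neuron, astrocyte and oligodendrocyte markers, each list summing to at least 3790 CPM in every library, were those of brain. Microglia markers summed to 154 to 165 CPM in *Adar1* E861A and 166 to 170 CPM in wild type, the median log2 fold change was -0.07, and 0 of 8 genes were called by edgeR, DESeq2 or limma-voom. Endothelial markers summed to 108 to 133 CPM against 136 to 165 CPM, and 1 of 6 was called, *Flt1*, at a log2 fold change of -0.38 ± 0.08 (adjusted p 0.0445). Astrocyte markers summed to 5130 to 5360 CPM against 4490 to 4730 CPM, most of it *Slc1a2*, which had a log2 fold change of 0.19 ± 0.06 (adjusted p 0.296, and 0.0119 with the replicate block) and was also called by DESeq2. Neuron markers summed to 3790 to 3910 CPM against 3930 to 4000 CPM, with 0 of 6 called by edgeR, DESeq2 or limma-voom and 2 at an unadjusted p under 0.05. Oligodendrocyte markers overlapped between genotypes (4240 to 4480 CPM against 4150 to 4500 CPM), with 0 of 5 called and 0 at an unadjusted p under 0.05. Lymphocyte markers summed to 3.84 to 4.36 CPM against 3.81 to 4.31 CPM, nearly all of it *Cd4*, and *Cd3g* had at most 2 counts in any library. Monocyte and neutrophil markers summed to 2.26 to 8.79 CPM in *Adar1* E861A and 1.33 to 2.44 CPM in wild type, and edgeR's quasi-likelihood test without the block, DESeq2 and limma-voom each called 0 of the 3 tested, against 1 (*S100a8*) by the likelihood ratio test and 2 at an unadjusted p under 0.05. In the quasi-likelihood test with the block, *S100a8* and *S100a9* were called higher, at log2 fold changes of 1.73 ± 0.27 (adjusted p 0.00283) and 1.53 ± 0.29 (adjusted p 0.014). *Ly6c2* and *Ccr2*, which mark monocytes, had at most 5 and 22 counts per library. The part of the endothelial, astrocyte, monocyte and neutrophil differences in the IRG result was not tested.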

How the data were processed

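Total RNA from whole brain was ribosome-depleted and made into stranded libraries, and 75-base paired-end reads were obtained. Per the labels and the study's methods, the authors trimmed reads with Trimmomatic 0.36, aligned them to mm9/NCBIM37 with STAR 2.5.2a and deposited raw counts per gene from its GeneCounts mode, without pooling. The strand setting is not given in the sources used here, so antisense partners cannot be separated. Deposited CPM tables over retained genes and a table of the authors' own fold changes and false discovery rates were not used. All 37310 identifiers were found in GENCODE vM1.

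Counts were fitted in R 4.3.3 with edgeR 4.0.16 (TMM scaling, quasi-likelihood test, Benjamini-Hochberg adjustment over all genes of a fit, 3 against 3 libraries). Members passing the study's CPM filter are given from that fit, and the others from filterByExpr (minimum count 10). The SE was the absolute log2 fold change divided by the square root of F. Exact permutation tests used log2(CPM + 0.1). Floors cover counting error only. Exons were merged per gene, and 75-base windows within exons were matched to both strands of NCBIM37. The scripts were tested on simulated data. Alternatives comprised scaling, filters, DESeq2 1.42.0, likelihood ratio, limma-voom 3.58.1, a replicate block and omission of each library.

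All 9 members are named with their values. From the other lists at most 4 called genes are named by adjusted p, together with *Gm4841*, *Gm12250*, *Gm12185*, *9930111J21Rik1*, *9930111J21Rik2*, *Irgq*, *Irf1*, *Irf9*, *Ifna2*, *Slc1a2*, *Ly6c2*, *Ccr2*, *Cd4*, *Cd3g*, *Gh*, *S100a8* and *S100a9*, chosen after their values were seen. Some listed genes are counted in their lists but not reported here by name. The 5 genes most alike were ranked by r. Members and lists were chosen with earlier results of these data known. The labels number the replicates and state no pairing between genotypes. Deviations of same-numbered libraries from their genotype means had r of 0.221, 0.329 and 0.112 across genes. Differently numbered libraries were not compared, so these values do not establish a pairing. The replicate block is therefore given only as an alternative to the main fit.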

Additional observations from a re-analysis of the deposited data

How the results depend on the processing

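Directions of all 9 members and of the *Tgtp* sum held in each of the 15 or 16 alternatives in which they were tested. The 8 calls became 3 when 2 CPM was required in any 3 libraries, which left only 4 members in the fit, and 5 to 8 over the omission of each library, the fewest without *Adar1* E861A replicate 3. *Irgm1* was called without a filter, by mean count, DESeq2, the likelihood ratio test and the block (adjusted p 0.00186 to 0.0465) and not in the other 11 alternatives. Apart from changes of the filter itself, these values of *Irgm1* come from fits under the study's filter. In the wider fit, limma-voom also called *Irgm1*. With the replicate block, 158 genes were called under the study's filter and 233 under the wider one, against 69 and 110 without it, and *Irgm1* was the one member whose call it changed. Outside the family it changed the calls of *Irf9*, *Slc1a2*, *S100a8*, *S100a9* and *Gh* (adjusted p 0.0666 without and 3.21e-06 with it) among the listed genes. In place of the study's filter, no filter gave 376 called genes and the mean count gave 107. The likelihood ratio test called 139 genes under the study's filter and 180 in the wider fit. Omissions gave 42 to 113 and 62 to 189 genes, lowest without *Adar1* E861A replicate 3 and highest without replicate 2. Wild-type replicate 2 left out gave 108. The cause was not tested. Members with 5 to 16 counts per wild-type library limit the precision of the largest folds.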
